A study of Homo sapiens with 8 samples.

Results

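The 2 TMZ-exposed clones derived from LN229, an established human glioblastoma line, were compared with each other. The comparison is between 4 of the 8 libraries of the series, 2 from Surv-GFP cells and 2 from SurvNESmut-GFP cells, chosen by their sample labels. Surv-GFP (D6) carries Survivin with a functional nuclear export signal (NES) fused to eGFP, and SurvNESmut-GFP (L2) carries the same fusion with a mutated NES. Without TMZ the first fusion protein is mainly cytoplasmic, and the study reports that it accumulated in the nucleus upon TMZ exposure. The second fusion protein is mainly nuclear. Both are stable single clones, transfected with a plasmid and selected with G418, and both were exposed to 50 µM temozolomide (TMZ) for 48 h. The other 4 libraries hold the same clones without TMZ and show which differences were present without the drug. They are also part of the fit, so that errors and p-values under TMZ rest on the spread in all 8 libraries. Since each form of Survivin is represented by 1 clone, the form and the clone cannot be told apart. Each group has 2 libraries, lettered a and b, so that all errors and p-values describe the spread between letters. The study describes both independent biological replicates and technical duplicates for these clones, but does not say which of them the letters stand for, so this spread may be technical.

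TMZ methylates DNA, and the methylated guanine it leaves is mispaired during replication. The mismatch repair system then processes these mispairs, which ends in DNA double-strand breaks, a p53 response, cell cycle arrest at G2, senescence or death. The repair protein MGMT removes the methyl group, and LN229 cells lack it. Survivin, encoded by BIRC5, acts in the nucleus and at the centromere as a subunit of the chromosomal passenger complex, which corrects chromosome attachment and drives cytokinesis, and in the cytoplasm it inhibits apoptosis. Its NES is bound by the export receptor CRM1.

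The NES mutation replaces 2 leucines by alanine, L96A and L98A, counted from the first methionine. Both codons lie in coding exon 3 of BIRC5 on chromosome 17. The reference transcript of the 142-residue form (GENCODE, GRCh38, chr17:78216716-78216745, plus strand) reads as follows over codons 92 to 101, with the mutated codons in capitals. It is the sequence that sets the clones apart by design.
BIRC5 NES codons: cagtttgaagaaTTAaccCTTggtgaattt
Reads on BIRC5 can come from the plasmid as well as from the cell's own gene. BIRC5 was measured at 1937 and 2029 CPM in Surv-GFP and 262 and 253 CPM in SurvNESmut-GFP under TMZ, with means of 1983 ± 64.6 (SD, n = 2) and 257 ± 6.89 (SD, n = 2). CPM are counts scaled to a common library size. The SurvNESmut-GFP libraries lay far below both Surv-GFP libraries, 7.70-fold in the fit (adjusted p = 1.48e-16, edgeR). Without TMZ the levels were 1152 and 1112 CPM against 407 and 414 CPM, and the log2 difference went from -1.46 to -2.95 with TMZ. SurvNESmut-GFP thus had fewer BIRC5 reads in both conditions.

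Reads counted on genes numbered 15826923 to 18861603 per library. Between the letters of a group the log2 CPM of all genes correlated with r from 0.994 to 0.996, across genes that are not independent replicates. The TMZ-exposed SurvNESmut-GFP libraries differed more from each other than the other pairs did: 54 of 9958 genes with a mean of at least 10 CPM differed by more than 1.5-fold between them, against 12 of 9956 in TMZ-exposed Surv-GFP, 10 of 9962 in untreated Surv-GFP and 1 of 9932 in untreated SurvNESmut-GFP. Of the glial markers checked, VIM, CD44 and TNC had at least 566 CPM in every library, while GFAP stayed at or below 0.921 CPM and SOX9 at or below 0.166 CPM. MGMT had 0 counts in all 8 libraries, which allows up to 3 counts in each. Of 23 markers of immune, endothelial, epithelial, neuronal, oligodendrocyte, mesenchymal, liver and blood cells, 15 stayed under 1 CPM in every library and 3 of these had no count. The summed level of all 23 was 187 to 202 CPM in TMZ-exposed Surv-GFP and 127 to 152 CPM in SurvNESmut-GFP.

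Under TMZ, 4902 of 14201 tested genes (34.5%) were higher and 4928 (34.7%) lower in SurvNESmut-GFP than in Surv-GFP by edgeR's quasi-likelihood F test at a Benjamini-Hochberg adjusted p of 0.05. At least 2-fold differences were found for 1425 higher (10.0%) and 1164 lower genes (8.20%). The median size of the log2 fold change over all tested genes was 0.42. Without TMZ 4926 genes (34.7%) were higher and 4180 (29.4%) lower, with a median size of 0.36. The share of genes called is thus high in every comparison, and counts of gene groups below are to be read against it.

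Most of the differences seen under TMZ were also present without it. Of the genes higher under TMZ, 3560 (72.6%) were higher without TMZ too, 1127 were not called without TMZ and 215 were lower without TMZ. Of the genes lower under TMZ, 3023 (61.3%) were also lower without the drug, 1456 were not called and 449 were higher. Being called in one condition and not in the other does not show that the difference changed, so the change itself was tested as an interaction term in the same model. It passed with a larger log2 fold change under TMZ for 2355 genes (16.6%) and with a smaller one for 2871 (20.2%). Among the 2583 genes called under TMZ and not without, 1451 (56.2%) passed this test. Among the 6583 genes called the same way in both conditions, 1305 had a difference that was larger in size under TMZ by this test and 794 one that was smaller.

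**Figure D1:**
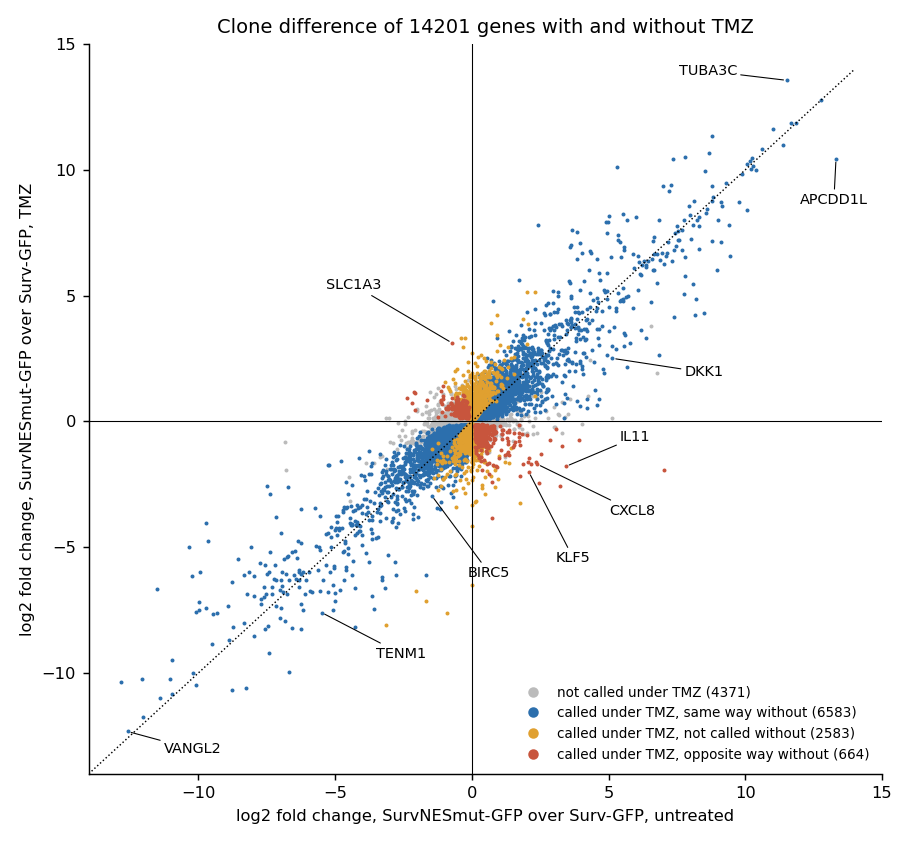
Each point is 1 of 14201 tested genes, with the log2 fold change of SurvNESmut-GFP over Surv-GFP without TMZ on the x axis and under TMZ on the y axis. Colours mark genes called under TMZ and called the same way without (6583), not called without (2583) or called the opposite way without (664), and the dotted line marks equal differences. Of the genes named, CXCL8, IL11 and KLF5 lie below the horizontal axis to the right and SLC1A3 above it to the left. The other genes named differ in the same direction in both conditions.

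Genes of the cell division cycle were higher in SurvNESmut-GFP under TMZ nearly throughout. Of a list of G2 and mitosis genes, 65 of 72 tested members were higher and 4 lower, with a median log2 fold change of 0.82 against 0.00 over all tested genes. Of the genes of DNA replication and S phase, 50 of 53 tested members were higher and 0 lower, with a median of 0.64. Without TMZ the same lists had 62 and 39 higher members and medians of 0.47 and 0.40. The interaction passed with a larger log2 fold change under TMZ for 49 and 37 members and with a smaller one for 5 and 3. For the replication list's count of 0 lower members, edgeR's test at an unadjusted p of 0.05 and DESeq2 gave 0 as well.

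Kinesins of the late spindle were among the members with the smallest p. KIF23, a subunit of the centralspindlin complex of cytokinesis, had 37.4 and 33.1 CPM in Surv-GFP and 115 and 116 CPM in SurvNESmut-GFP (log2 fold change 1.71 ± 0.0663, SE). KIF20A, which carries the chromosomal passenger complex to the spindle midzone, had 21.6 and 21.9 CPM in Surv-GFP and 65.3 and 67.5 CPM in SurvNESmut-GFP, a 3.05-fold difference (adjusted p = 1.68e-12). Without TMZ the KIF20A levels were 211 and 219 against 294 and 284 CPM, so that the level under TMZ was lower in both clones than without it and the log2 difference between the clones was larger (interaction, adjusted p = 1.01e-08). UBE2C, a ubiquitin-conjugating enzyme of the anaphase-promoting complex, had 72.3 and 67.9 CPM in Surv-GFP and 185 and 177 CPM in SurvNESmut-GFP, and its log2 difference was 1.37 under TMZ and 1.38 without. NCAPH, a condensin subunit, differed by 1.30 ± 0.0521. The 4 lower members were PTTG1 (securin, -0.49), CDC25B (a phosphatase that activates CDK1, -0.37), HMMR (a spindle-associated hyaluronan receptor, -0.27) and SMC4 (a condensin core subunit, -0.18). HMMR had 47.4 and 42.6 CPM in Surv-GFP and 32.4 and 42.5 CPM in SurvNESmut-GFP, and it lost its call without Surv-GFP TMZ replicate a (adjusted p = 0.109, edgeR), without SurvNESmut-GFP TMZ replicate a (0.189) and with only the 4 libraries in the fit (0.0535).

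Many promoters of mitotic genes hold a cell cycle homology region (CHR), the element through which repressive and activating DREAM and MuvB complexes time transcription to G2. It was searched as TTTGAA or TTTAAA on either strand in RefSeq promoters (GRCh38.p14) reaching from 250 bases before to 50 after the start. It was found in 55 of 75 promoters (73.3%) of 61 matched G2 and mitosis genes, in 23.99% of all 35116 promoters and in 14.8% of those of the replication list. CCAAT, the site of NF-Y, was found in 69.3% of the G2 and mitosis promoters and in 34.6% of all. Its share was also above that of all promoters in the replication (55.7%), p53 target (48.9%) and secretory phenotype (42.5%) lists. Genes with several annotated starts count once per start, and a match is a description of the sequence. The following 30-base stretches, with the element in capitals, show it in the 6 genes with the largest log2 fold change among called list members with a single annotated start and a forward element in the 50 bases before it. They were chosen after the values were seen.
KIF20A: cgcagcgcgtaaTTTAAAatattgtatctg
BUB1B: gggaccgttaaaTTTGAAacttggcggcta
PRC1: cccgtggcgcggTTTGAAattttgcggggc
ANLN: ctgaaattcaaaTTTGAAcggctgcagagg
PLK1: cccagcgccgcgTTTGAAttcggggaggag
CDCA8: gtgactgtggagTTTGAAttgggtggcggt
KIF20A (stretch at chr5:138179059-138179088, plus strand) was followed by BUB1B, a spindle checkpoint kinase (chr15:40161034-40161063, plus strand), at a log2 fold change of 1.44 under TMZ. PRC1, which bundles midzone microtubules (chr15:90994538-90994567, minus strand), stood at 1.31, and ANLN, the anillin of the contractile ring (chr7:36389830-36389859, plus strand), at 1.20. PLK1, the polo-like kinase of mitotic entry (chr16:23678848-23678877, plus strand), stood at 1.18, and CDCA8, the borealin subunit of the passenger complex (chr1:37692481-37692510, plus strand), at 1.12. The elements began 41, 23, 20, 20, 29 and 23 bases before the start in the order listed.

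In the list of Survivin and its partners, BIRC5 was the only lower member and the 9 others were higher under TMZ. AURKB, the kinase of the chromosomal passenger complex, had 23.1 and 19.5 CPM in Surv-GFP and 55.3 and 55.2 CPM in SurvNESmut-GFP (log2 fold change 1.37 ± 0.0743, adjusted p = 8.59e-11). AURKA, the spindle pole kinase, had 46.2 and 45.7 CPM in Surv-GFP and 108 and 113 CPM in SurvNESmut-GFP, with nearly equal log2 differences of 1.27 with and 1.31 without TMZ. INCENP, the scaffold of the complex, had 84.6 and 83.3 CPM in Surv-GFP and 136 and 138 CPM in SurvNESmut-GFP, and its difference went from 0.15 to 0.70 with TMZ. RAN, the GTPase that directs nuclear transport, differed by 0.74 ± 0.0496. RNA of the listed partners of Survivin was thus higher in SurvNESmut-GFP. The share of higher members in this list (90%) was close to that in the G2 and mitosis list (90.3%). BIRC5 reads can come from the plasmid, so they do not give the level of the cell's own BIRC5 or of Survivin protein.

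DNA repair genes followed the replication genes in direction. Of the homologous recombination and Fanconi anaemia list, 30 of 40 tested members were higher and 0 lower, with a median of 0.55 (without TMZ 23 higher, 4 lower and a median of 0.25). At an unadjusted p of 0.05 with edgeR, and with DESeq2, again 0 members were lower. BLM, a RecQ helicase that resolves recombination intermediates, had 19.5 and 20.02 CPM in Surv-GFP and 66.1 and 62.6 CPM in SurvNESmut-GFP (log2 fold change 1.71 ± 0.0766). FANCI and FANCA, of the Fanconi anaemia pathway of crosslink repair, differed by 1.18 and 0.90. FANCA had differed by 0.20 without TMZ.

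In mismatch and base excision repair, 14 of 26 tested members were higher and 6 lower (median 0.21). MSH6, which takes part in recognising the mispairs left by TMZ, had 92.1 and 92.3 CPM in Surv-GFP and 191 and 186 CPM in SurvNESmut-GFP, and the clones did not overlap. UNG, which removes uracil from DNA, differed by 1.70 ± 0.0715. PARP1, a sensor of strand breaks, was at 417 and 433 against 424 and 412 CPM without TMZ (adjusted p = 0.669) and at 241 and 239 CPM in Surv-GFP and 411 and 407 CPM in SurvNESmut-GFP under TMZ. The separation of the clones in PARP1 was thus seen with the drug, and the interaction passed the test (adjusted p = 1.34e-07). EXO1, the nuclease of mismatch repair and end resection, had 76.7 and 71.1 CPM in Surv-GFP and 117 and 108 CPM in SurvNESmut-GFP. SMUG1 (-0.84), MPG (-0.85), ALKBH3 (-0.49) and TDG (-0.44), which remove or reverse damaged bases, were lower.

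Genes of the p53 response showed the opposite balance under TMZ. Of the listed p53 targets, 12 of 41 tested members were higher and 22 lower in SurvNESmut-GFP, with a median of -0.32. Without TMZ 24 were higher and 11 lower, with a median of 0.44, and 26 members passed the interaction test with a smaller log2 fold change under TMZ and 4 with a larger one. CDKN1A, which encodes the cell cycle inhibitor p21, had 907 and 975 CPM in Surv-GFP and 429 and 492 CPM in SurvNESmut-GFP, 2.05-fold lower in SurvNESmut-GFP (adjusted p = 5.37e-10). Without TMZ CDKN1A had 86.6 and 77.2 against 117 and 119 CPM, with SurvNESmut-GFP the higher clone. GADD45A, a stress sensor that inhibits CDK1, followed the same course, at 511 and 565 CPM in Surv-GFP and 165 and 179 CPM in SurvNESmut-GFP under TMZ and 36.2 and 40.2 against 57.4 and 61.9 CPM without.

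Among p53 targets that act in cell death, PMAIP1 and TNFRSF10B were lower and CASP1 was higher under TMZ. PMAIP1, the BH3-only protein NOXA, had 192 and 186 CPM in Surv-GFP and 78.6 and 80.6 CPM in SurvNESmut-GFP, and its log2 difference without TMZ was 0.13 (adjusted p = 0.0692). TNFRSF10B, the death receptor DR5, had 447 and 443 CPM in Surv-GFP and 217 and 232 CPM in SurvNESmut-GFP. CCNG1, a cyclin that feeds back on p53, was lower with (-1.44) and without TMZ (-1.43). CASP1, an inflammatory caspase, had 86 and 67 counts in SurvNESmut-GFP against 1 and 1 in Surv-GFP, a ratio of 83.8-fold (95% counting interval 22.8 to 698). Without TMZ CASP1 had 31 and 63 counts in SurvNESmut-GFP against 1 and 0 in Surv-GFP. KITLG, the ligand of the receptor KIT, had 218 and 210.2 CPM in Surv-GFP and 323 and 377 CPM in SurvNESmut-GFP, CYFIP2, a subunit of the WAVE actin regulator, had 6.31 and 5.51 CPM in Surv-GFP and 29.97 and 31.7 CPM in SurvNESmut-GFP, and FBXO22, a ubiquitin ligase subunit, differed by 0.68.

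In the list of BCL2 family members and caspases, 12 of 37 tested members were higher and 16 lower (median -0.19). These are shares of 32.4% and 43.2%, against 34.5% and 34.7% of all tested genes. BCL2L1, which encodes BCL-XL, an inhibitor of apoptosis, had 63.8 and 61.3 CPM in Surv-GFP and 185 and 155 CPM in SurvNESmut-GFP, whereas BCL2L2, another inhibitor, had 90.1 and 89.96 CPM in Surv-GFP and 50.1 and 49.2 CPM in SurvNESmut-GFP. BID, which links death receptors to mitochondria, differed by 2.06 ± 0.0929 and BMF, a BH3-only protein, by 2.33 ± 0.294. The SurvNESmut-GFP letters of BMF under TMZ lay apart, at 8.41 and 17.1 CPM. Without TMZ the log2 differences were 1.15 for BCL2L1, 1.56 for BID, 3.07 for BMF and -0.08 for BCL2L2. XIAP, a direct caspase inhibitor, had 124 and 115 CPM in Surv-GFP and 80.6 and 79.6 CPM in SurvNESmut-GFP, with a log2 difference of -0.03 without TMZ (adjusted p = 0.704). BIRC3, an inhibitor of apoptosis regulated by NF-kappaB, had 14.2 and 11.7 CPM in Surv-GFP and 15.6 and 15.8 CPM in SurvNESmut-GFP, but its call (adjusted p = 0.0389) was lost under 7 alternatives, among them DESeq2 (0.197) and the fit without Surv-GFP TMZ replicate b (0.339), without SurvNESmut-GFP TMZ replicate a (0.113) or b (0.132), or without either untreated SurvNESmut-GFP library (0.0544 and 0.0546).

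**Figure D2:**
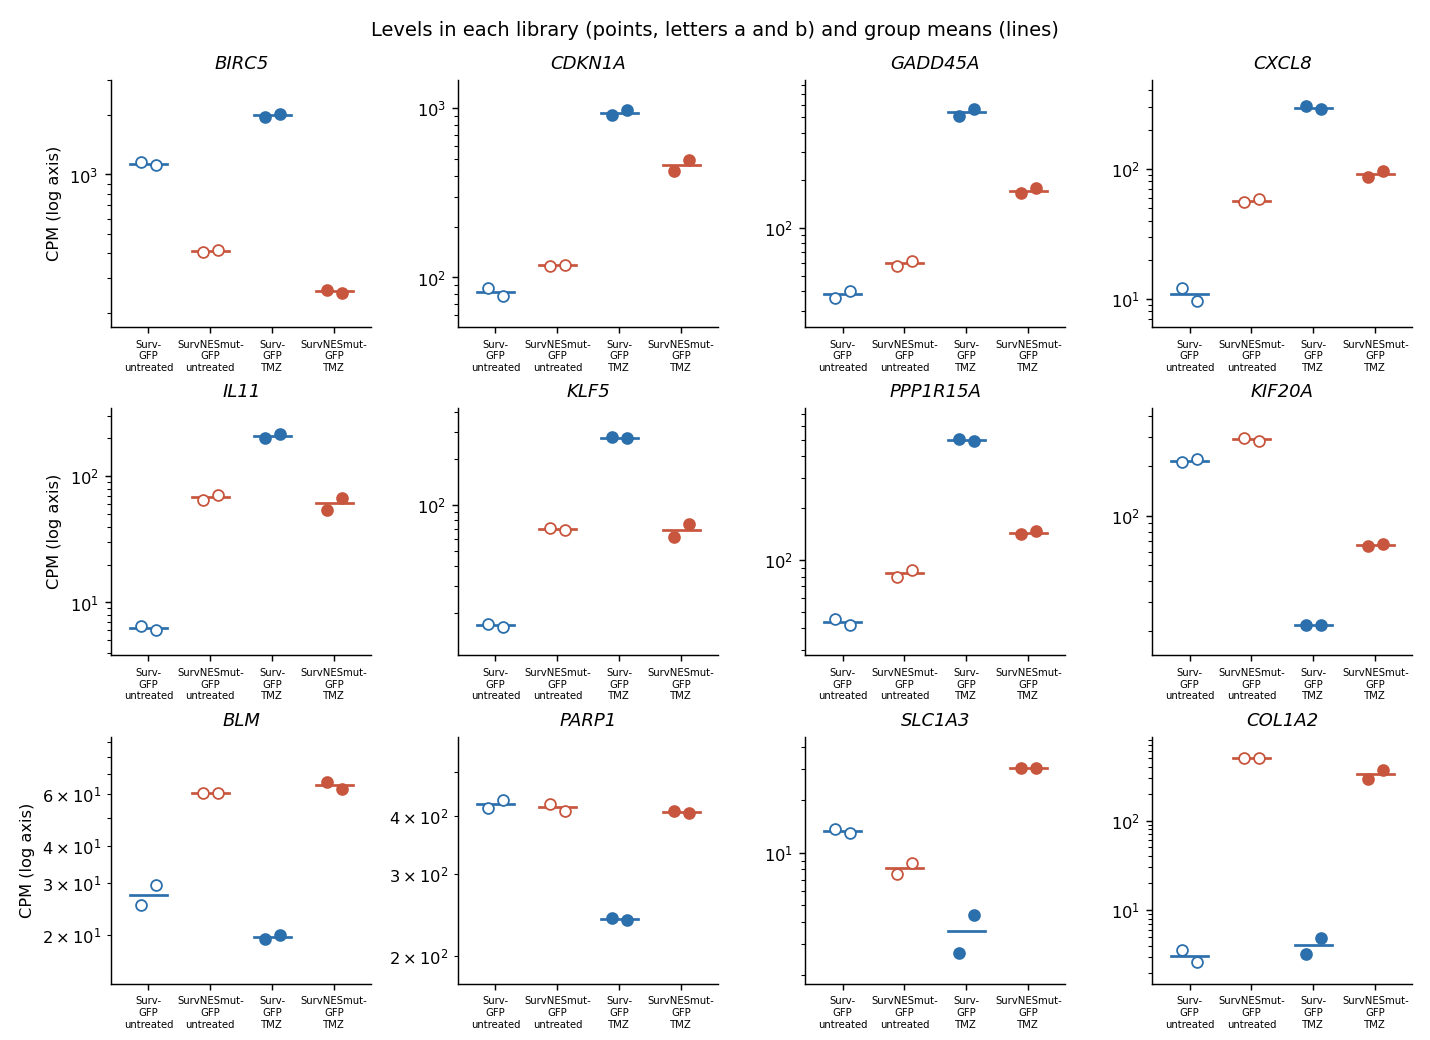
CPM on a log axis in each of the 8 libraries for 12 genes, with open points for untreated and filled points for TMZ-exposed libraries, blue for Surv-GFP and red for SurvNESmut-GFP, and a line at each group mean. CDKN1A, GADD45A, CXCL8, IL11, KLF5 and PPP1R15A have the higher clone at SurvNESmut-GFP without TMZ and at Surv-GFP with TMZ.

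The secretory genes of senescence shared this pattern. Of the senescence-associated secretory phenotype list, 17 of 42 tested members were higher and 19 lower under TMZ, with a median of -0.14 and a range from -5.80 to 3.84. Without TMZ 31 members were higher and 9 lower, with a median of 1.38. The interaction passed with a smaller log2 fold change for 23 members and with a larger one for 3. In 9 members SurvNESmut-GFP was the higher clone without and the lower clone with TMZ.

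CXCL8, the neutrophil chemokine IL-8, had 12.03 and 9.65 CPM in untreated Surv-GFP and 55.2 and 58.5 CPM in untreated SurvNESmut-GFP. Under TMZ it had 305 and 286 CPM in Surv-GFP and 86.2 and 96.5 CPM in SurvNESmut-GFP, so that both clones lay above their untreated libraries and their order was exchanged (-1.69 under TMZ, 2.39 without, adjusted p of the interaction = 3.94e-13). IL11, a cytokine of the IL-6 family, had 203 and 218 CPM in Surv-GFP and 54.3 and 68.05 CPM in SurvNESmut-GFP under TMZ against 6.45 and 6.07 and 64.4 and 71.7 CPM without. In SurvNESmut-GFP the IL11 values with and without TMZ overlapped in range, while in Surv-GFP they did not. IGFBP3, which binds insulin-like growth factors, had 95.9 and 106 CPM in Surv-GFP and 19.98 and 25.7 CPM in SurvNESmut-GFP under TMZ against 4.23 and 2.98 and 11.7 and 12.9 CPM without.

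Not all secretory genes changed their order. INHBA, the activin A subunit, was lower in SurvNESmut-GFP with (-1.85) and without TMZ (-0.59). CCL2, a monocyte chemokine, was higher in both, with 8.29 and 6.14 CPM in Surv-GFP and 75.7 and 103 CPM in SurvNESmut-GFP under TMZ. IGFBP7, a secreted factor tied to senescence, had 84.6 and 87.1 CPM in Surv-GFP and 271 and 293 CPM in SurvNESmut-GFP. IL6 had 130 and 96 counts in SurvNESmut-GFP against 5 and 12 in Surv-GFP under TMZ, a ratio of 14.6-fold (95% counting interval 8.90 to 25.4) that rests on few reads in the lower clone. CXCL8 and IL6, both interleukins of the secretory phenotype, thus differed in opposite directions.

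Genes of the NF-kappaB pathway, which drives many of these cytokines, were called in both directions under TMZ. The shares, 38.7% higher and 38.7% lower, were near those of all tested genes (34.5% and 34.7%). Of this list 12 of 31 tested members were higher and 12 lower under TMZ (median -0.11), while 24 were higher and 1 lower without (median 0.64). NFKB1, which encodes the p105 and p50 subunits, had 148 and 143 CPM in Surv-GFP and 101 and 105 CPM in SurvNESmut-GFP and had been higher in SurvNESmut-GFP without TMZ (0.66). NFKBIB and BIRC2, regulators of the pathway, differed by -0.75 and -0.72. Among the higher members were TNFAIP2 (6.31 and 7.0 CPM in Surv-GFP and 44.5 and 40.9 CPM in SurvNESmut-GFP) and NFKBIA, the inhibitor IkappaB-alpha (0.63).

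The integrated stress response, in which ATF4 raises amino acid supply and CHOP, showed the same shift. Under TMZ 12 of 36 tested members were higher and 20 lower (median -0.17), against 20 higher and 9 lower without (median 0.28). Without SurvNESmut-GFP TMZ replicate a, the number of higher members under TMZ was 6. DDIT3, which encodes CHOP, had 277 and 281 CPM in Surv-GFP and 41.2 and 48.4 CPM in SurvNESmut-GFP, 6.24-fold lower in SurvNESmut-GFP. TRIB3, a pseudokinase induced by CHOP, had 702 and 748 CPM in Surv-GFP and 192 and 186 CPM in SurvNESmut-GFP and differed by 0.38 without TMZ. PPP1R15A, the phosphatase subunit GADD34 that restores translation, had 504 and 493 CPM in Surv-GFP and 141 and 148 CPM in SurvNESmut-GFP and differed by 0.93 without TMZ. SLC38A2, an amino acid transporter, differed by -0.91. The higher members SLC7A5, another amino acid transporter (1.03), STC2, a secreted glycoprotein (1.11), and PSAT1, of serine synthesis (0.61), were higher without TMZ too, by 2.52, 3.42 and 0.44.

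**Figure D3:**
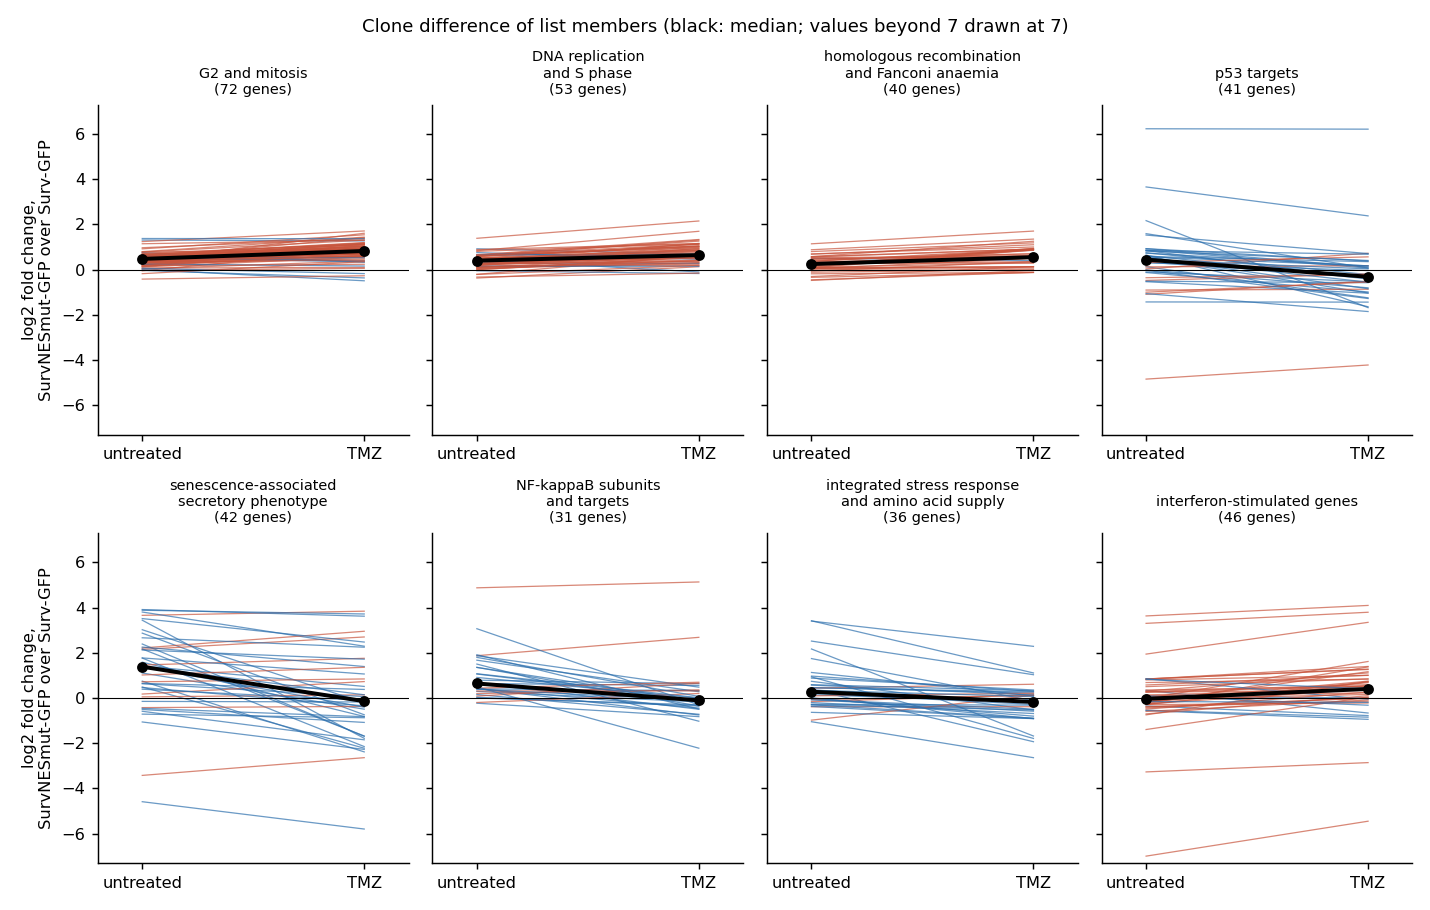
Log2 fold change of SurvNESmut-GFP over Surv-GFP for the tested members of 8 lists without TMZ (left) and under TMZ (right), 1 line per gene, red where the value is larger under TMZ and blue where it is smaller, with the list median in black and values beyond 7 drawn at 7. The median of the G2 and mitosis list goes from 0.47 to 0.82, and that of the secretory phenotype from 1.38 to −0.14.

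Reversals were searched across all genes. Among genes called in both conditions and with at least 10 CPM in the higher clone of each, 179 were lower in SurvNESmut-GFP without TMZ and higher with it, and 418 were higher without and lower with it. Ranked by the smaller of their differences, MEGF10, SOCS3 and SLC1A3 led the first set. SLC1A3, the glial glutamate transporter EAAT1, had 13.7 and 12.96 against 7.59 and 8.72 CPM without TMZ and 2.67 and 4.42 CPM in Surv-GFP and 30.4 and 30.6 CPM in SurvNESmut-GFP with it. SOCS3, an inhibitor of cytokine signalling, had 55.96 and 58.4 against 38.5 and 30.8 CPM without TMZ and 10.1 and 9.18 CPM in Surv-GFP and 16.2 and 21.2 CPM in SurvNESmut-GFP with it, and MEGF10, an engulfment receptor, went from -1.11 to 0.86. SLC1A3 thus lay lowest in TMZ-exposed Surv-GFP and highest in TMZ-exposed SurvNESmut-GFP. In the second set KLF5, a zinc finger transcription factor, stood first together with IL11 and IGFBP3, at 277 and 270.5 CPM in Surv-GFP and 61.5 and 75.7 CPM in SurvNESmut-GFP under TMZ and 16.8 and 16.2 against 71.1 and 69.04 CPM without. In SurvNESmut-GFP the KLF5 values with and without TMZ overlapped in range.

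Some genes were close in both clones without TMZ and apart with it. With a log2 difference under 0.25 in size without TMZ, a called difference under TMZ and a called interaction, 639 genes with at least 10 CPM were higher and 1096 lower in SurvNESmut-GFP. The lower gene with the largest difference was DNAJB9, a chaperone of the endoplasmic reticulum, with 18.9 and 18.8 against 16.1 and 17.8 CPM without TMZ and 89.9 and 79.2 CPM in Surv-GFP and 15.1 and 16.3 CPM in SurvNESmut-GFP with it. Only TMZ-exposed Surv-GFP stood out for DNAJB9, and the other 3 groups lay between 15.1 and 18.9 CPM. PDE4D, a phosphodiesterase that degrades cyclic AMP, had 42.4 and 46.3 CPM in Surv-GFP and 10.2 and 12.3 CPM in SurvNESmut-GFP under TMZ and 14.6 and 12.5 against 12.6 and 13.7 CPM without. LONRF2 differed by -2.20 ± 0.151 and ZNF385A by -1.81 ± 0.0625. NR4A1, an immediate early nuclear receptor, had 301 and 357 CPM in Surv-GFP and 52.3 and 119.7 CPM in SurvNESmut-GFP, with a wide gap between the SurvNESmut-GFP letters. Without TMZ NR4A1 had 267 and 156 CPM in Surv-GFP against 212 and 209 CPM in SurvNESmut-GFP. The untreated Surv-GFP letters thus lay apart too, and its small difference without TMZ rests on their mean.

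Of the genes higher under TMZ by this rule, ABLIM1, an actin-binding LIM protein, had 23.8 and 23.8 CPM in Surv-GFP and 88.2 and 81.97 CPM in SurvNESmut-GFP, and its log2 difference without TMZ was 0.25 (adjusted p = 0.00798). DPY19L2 had 7.64 and 7.29 CPM in Surv-GFP and 28.9 and 24.1 CPM in SurvNESmut-GFP and the carboxypeptidase M gene (CPM) differed by 1.80 ± 0.124, and NAV3, a neuron navigator, by 1.77 ± 0.175. GBP1, a guanylate-binding protein induced by interferon, had 5.67 and 8.15 CPM in Surv-GFP and 21.1 and 20.98 CPM in SurvNESmut-GFP under TMZ and 18.2 and 18.8 against 17.9 and 18.5 CPM without. The TMZ-exposed Surv-GFP libraries were the lowest of the 4 groups for GBP1.

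The largest differences were of genes nearly silent in one clone. With at least 10 CPM in both libraries of one clone and at most 3 counts in each library of the other, 17 genes were present in SurvNESmut-GFP and 13 in Surv-GFP under TMZ. Of these, 15 and 11 met the same criterion without TMZ. TUBA3C, an alpha-tubulin gene, had 1380 and 1407 counts in SurvNESmut-GFP and 0 in both Surv-GFP libraries, at least 509-fold higher when 3 counts are allowed in each library at 0. GAGE2A, a cancer-testis antigen gene, had 837 and 770 counts against 0 (at least 293-fold). PAGE2, of a related family, had 601 and 612 counts against 1 and 0, and ACSS3, a mitochondrial acyl-CoA synthetase, had 699 and 642 against 1 and 1, a ratio of 735-fold (95% counting interval 203 to 6071). TUBA3C, the GAGE and PAGE genes and others with near-identical copies share reads with them, and the sources used here do not say how these were assigned.

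In the other direction, VANGL2, a planar cell polarity protein, had 649 and 648 counts in Surv-GFP and 0 in both SurvNESmut-GFP libraries (at least 197-fold lower). PPP1R26, a phosphatase regulator, had 446 and 429 counts against 0 (at least 133-fold lower). CPXM2, a carboxypeptidase-like secreted protein, had 891 and 859 counts against 0 and 1, and HS3ST3A1, a heparan sulfate sulfotransferase, had 418 and 454 against 1 and 2, a ratio of 265-fold (95% counting interval 90.5 to 1289).

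Among genes with a count in each of the 4 TMZ-exposed libraries, APCDD1L, a paralog of a WNT inhibitor, had 3694 and 4254 counts in SurvNESmut-GFP and 2 and 4 in Surv-GFP. Its antisense neighbour APCDD1L-AS1 had 401 and 387 against 4 and 5, and since the sources used here do not give strandedness, reads of the pair cannot be told apart. MYH14, a nonmuscle myosin, had 1662 and 1547 against 1 and 4 counts and PDGFB, a growth factor of the PDGF receptors, 1010 and 880 against 7 and 2. CLDN11 (a tight junction claudin), MCF2L (a guanine nucleotide exchange factor) and SSX1 (a cancer-testis antigen) had count ratios of 304, 225 and 206, with 95% counting intervals of 104 to 1478, 126 to 452 and 94.2 to 561. IGFN1 had 2657 and 1251 counts against 4 and 8 and so differed between the SurvNESmut-GFP letters. KRT81, a hair keratin, had 2.99 and 2.47 CPM in Surv-GFP and 357 and 264 CPM in SurvNESmut-GFP, and it too has close paralogs.

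Among the genes nearly silent in SurvNESmut-GFP were some of neuronal adhesion and guidance. TENM1, a teneurin, had 186 and 203 CPM in Surv-GFP and 0.818 and 1.20 CPM in SurvNESmut-GFP (log2 fold change -7.59 ± 0.112) and 70.5 and 70.7 against 1.73 and 1.39 CPM without TMZ. NFASC, a neurofascin, had 480 and 469 counts against 3 and 5 and DCC, the netrin receptor, 226 and 231 against 2 and 4. ARC, an immediate early gene of neurons, had 197 and 276 counts against 1 and 2. ZNF208, ZNF648, SPECC1, IQSEC1 and FAM131A had count ratios between 66.8 and 125 in the same direction, and their SurvNESmut-GFP libraries held 1 to 4 counts each. Intervals on such ratios cover counting error only.

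Over their lists, adhesion and guidance genes were called in both directions. The shares higher and lower were 41.2% and 47.1% for adhesion and 39.0% and 39.0% for guidance. All tested genes had 34.5% and 34.7%. Of cadherins and cell adhesion genes 21 of 51 tested members were higher and 24 lower (median -0.15), and of axon guidance genes 23 of 59 tested members were higher and 23 lower (median 0.12). L1CAM, an adhesion molecule of migrating cells, had 8.34 and 6.60 CPM in Surv-GFP and 225 and 219 CPM in SurvNESmut-GFP (29.6-fold). MCAM and CDH18 were higher (1.28 and 2.26), whereas CADM4 (-1.59) and the protocadherin PCDH10 (-2.66) were lower. In axon guidance EPHA3 (-2.05), EFNB2 (-1.23) and SEMA3A (-1.17) were lower and DPYSL2 (1.33), NTN4 (1.80), SLIT2 (1.43) and PLXND1 (1.35) higher. EFNB2, an ephrin ligand, had differed by 0.07 without TMZ (adjusted p = 0.389).

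Matrix genes were mostly higher in SurvNESmut-GFP. Of collagens and matrix proteins 30 of 43 tested members were higher and 6 lower, with a median of 1.08 under TMZ and 0.78 without. COL1A2, a chain of type I collagen, had 3.26 and 4.82 CPM in Surv-GFP and 291 and 371 CPM in SurvNESmut-GFP (82.3-fold). THBS1, the matrix glycoprotein thrombospondin-1, had 155 and 142 CPM in Surv-GFP and 2728 and 2212 CPM in SurvNESmut-GFP (16.6-fold). COL4A1 and COL4A2, the basement membrane collagen chains that share a promoter region, differed by 2.43 and 2.08. TNC (-0.87), COL11A1 (-0.76), VCAN (-0.34) and SPARC (-0.33) were lower. Of integrins and laminins 13 of 27 tested members were higher and 8 lower (median 0.13). ITGA11, a collagen receptor chain, differed by 3.23 ± 0.147 and ITGA3, a laminin receptor chain, by 1.38 ± 0.0488, while ITGB8, which activates latent TGF-beta, had 671 and 635 CPM in Surv-GFP and 214 and 209 CPM in SurvNESmut-GFP.

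Glioma lineage genes leaned the other way, since 8 of 23 tested members were higher and 13 lower (median -0.58 under TMZ and -0.77 without). S100B, a glial calcium-binding protein, had 248 and 279 CPM in Surv-GFP and 14.3 and 19.3 CPM in SurvNESmut-GFP and PTPRZ1, a glial receptor phosphatase, had 289 and 319.5 CPM in Surv-GFP and 13.4 and 25.3 CPM in SurvNESmut-GFP. SOX2, a stem cell transcription factor, had 54.3 and 54.5 CPM in Surv-GFP and 19.4 and 19.7 CPM in SurvNESmut-GFP. MAP2, a microtubule protein of neurons, differed by -2.16, and ALDH1A3, tied to the mesenchymal state, was higher (0.69). All 5 differed in the same direction without TMZ.

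Signalling pathways contained members in both directions. Of receptor tyrosine kinases and their ligands 21 of 43 tested members were higher and 11 lower (median 0.13). NGFR, the low-affinity neurotrophin receptor, is on this list although it is not a kinase. It had 29.1 and 32.99 CPM in Surv-GFP and 294 and 267 CPM in SurvNESmut-GFP. ERBB3, a neuregulin receptor, had 521 and 577 CPM in Surv-GFP and 144 and 192 CPM in SurvNESmut-GFP. Of the WNT and hedgehog list 18 of 40 tested members were higher and 14 lower (median 0.14), among them DKK1, a WNT inhibitor, with 33.7 and 31.2 CPM in Surv-GFP and 196 and 173 CPM in SurvNESmut-GFP under TMZ and 2.17 and 2.26 against 80.1 and 76.1 CPM without. HHIP and GLI2, of the hedgehog pathway, were higher by 2.07 and 1.47. Of the Notch list 7 of 32 tested members were higher and 16 lower (median -0.17), and without SurvNESmut-GFP TMZ replicate a 11 members were higher. JAG1, a Notch ligand, had 268 and 246 CPM in Surv-GFP and 109 and 84.2 CPM in SurvNESmut-GFP and a log2 difference of 0.09 without TMZ (adjusted p = 0.463), and HEY1, a Notch target, had 40.5 and 36.6 CPM in Surv-GFP and 7.89 and 6.62 CPM in SurvNESmut-GFP.

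Of the TGF-beta and BMP list 17 of 42 tested members were higher and 18 lower (median -0.05). GDF15, a stress cytokine and p53 target, had 1361 and 1553 CPM in Surv-GFP and 409 and 498 CPM in SurvNESmut-GFP under TMZ and 14.7 and 16.9 against 77.8 and 64.2 CPM without, another exchange of order. FST, the activin-binding follistatin, had 116 and 116 CPM in Surv-GFP and 12.9 and 27.4 CPM in SurvNESmut-GFP, whereas FSTL3, a related protein, was higher by 2.63. TGFB2, a TGF-beta ligand, had 7.59 and 7.52 CPM in Surv-GFP and 43.9 and 37.7 CPM in SurvNESmut-GFP. GDF11, an activin-like ligand, was lower with (-2.58) and without TMZ (-3.02).

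Interferon-stimulated genes were mostly higher in SurvNESmut-GFP under TMZ. Under TMZ 26 of 46 tested members were higher and 9 lower (median 0.40), against 15 and 14 without (median -0.04), and the interaction passed with a larger log2 fold change for 17 members and a smaller one for 5. OAS3, an antiviral RNA sensor, had 58.3 and 55.8 CPM in Surv-GFP and 154 and 146 CPM in SurvNESmut-GFP and BST2, which tethers virus particles, had 1.87 and 1.89 CPM in Surv-GFP and 30.3 and 34.3 CPM in SurvNESmut-GFP. IFITM2, an inhibitor of virus entry, was lower, with 35.98 and 41.7 CPM in Surv-GFP and 5.38 and 5.29 CPM in SurvNESmut-GFP.

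HLA and antigen presentation genes were mostly lower in SurvNESmut-GFP, with 20 of 31 tested members lower and 6 higher (median -0.52). The class II genes carried the largest of the named differences. HLA-DRA, the alpha chain of DR, had 770.2 and 785 CPM in Surv-GFP and 200.2 and 205 CPM in SurvNESmut-GFP, CD74, the invariant chain that guides class II molecules, had 1662 and 1686 CPM in Surv-GFP and 457 and 453 CPM in SurvNESmut-GFP, and HLA-DQA1 had 41.4 and 42.9 CPM in Surv-GFP and 3.56 and 3.65 CPM in SurvNESmut-GFP. B2M, the light chain of class I, was higher (0.48), as were the peptide loading factor TAPBP (0.53) and the trimming peptidase ERAP2 (1.33). HLA genes are near copies of each other, and their values are uncertain to that extent.

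Metabolic lists differed in direction. Of NRF2 targets, the genes of the antioxidant response, 22 of 30 tested members were higher and 2 lower (median 0.54), with TXNRD1, a thioredoxin reductase, at 259.9 and 239 CPM in Surv-GFP and 693 and 594 CPM in SurvNESmut-GFP and the drug transporter ABCC3 at 17.7 and 15.9 CPM in Surv-GFP and 173 and 150.2 CPM in SurvNESmut-GFP. Of hypoxia and glycolysis genes 20 of 32 tested members were higher and 9 lower (median 0.35). SLC16A3, the lactate exporter MCT4, had 11.1 and 11.2 CPM in Surv-GFP and 106 and 113 CPM in SurvNESmut-GFP. VEGFA, the angiogenic factor, had 217 and 209 CPM in Surv-GFP and 168 and 153 CPM in SurvNESmut-GFP under TMZ against 19.2 and 18.98 and 50.8 and 48.7 CPM without, and so changed its order. Of cholesterol and fatty acid synthesis genes 6 of 32 tested members were higher and 19 lower (median -0.27). SCD, the stearoyl-CoA desaturase, had 1029 and 988 CPM in Surv-GFP and 415 and 591 CPM in SurvNESmut-GFP, and ACAT2, which makes acetoacetyl-CoA, was higher by 0.82.

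Nuclear transport genes were higher in 33 of 45 tested members and lower in 7 (median 0.30). CSE1L, which recycles importin alpha, had 281 and 269 CPM in Surv-GFP and 714 and 698 CPM in SurvNESmut-GFP, and RANGAP1, the activator of the RAN GTPase, differed by 1.04. Of the H3K4 methylation list 11 of 22 tested members were higher and 6 lower (median 0.14), the demethylases KDM5B (-1.08), KDM5C (-0.94) and KDM5A (-0.42) being lower together with the methyltransferase KMT2D (-0.96). Of DNA methylation and germline genes 11 of 23 tested members were higher and 9 lower (median 0.13). MAGEB2 had 4.01 and 4.02 CPM in Surv-GFP and 44.3 and 44.5 CPM in SurvNESmut-GFP, while MAGEA12 (-1.001) and MAGEA6 (-0.71) were lower. Of the other qPCR genes, ACTB, a cytoskeletal actin, had 1837 and 1861 CPM in Surv-GFP and 3662 and 3451 CPM in SurvNESmut-GFP, GAPDH, a glycolytic enzyme, had 2727 and 2688 CPM in Surv-GFP and 2288 and 2391 CPM in SurvNESmut-GFP, and TP53BP1, which favours end joining over resection, had 107 and 102 CPM in Surv-GFP and 132 and 127 CPM in SurvNESmut-GFP. The named qPCR list as a whole had 6 higher and 5 lower of 11 tested members. Of the 10 tested markers of other cell types, 3 were higher and 1 lower. No mitochondrially encoded gene is listed in the count file.

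**Figure D4:**
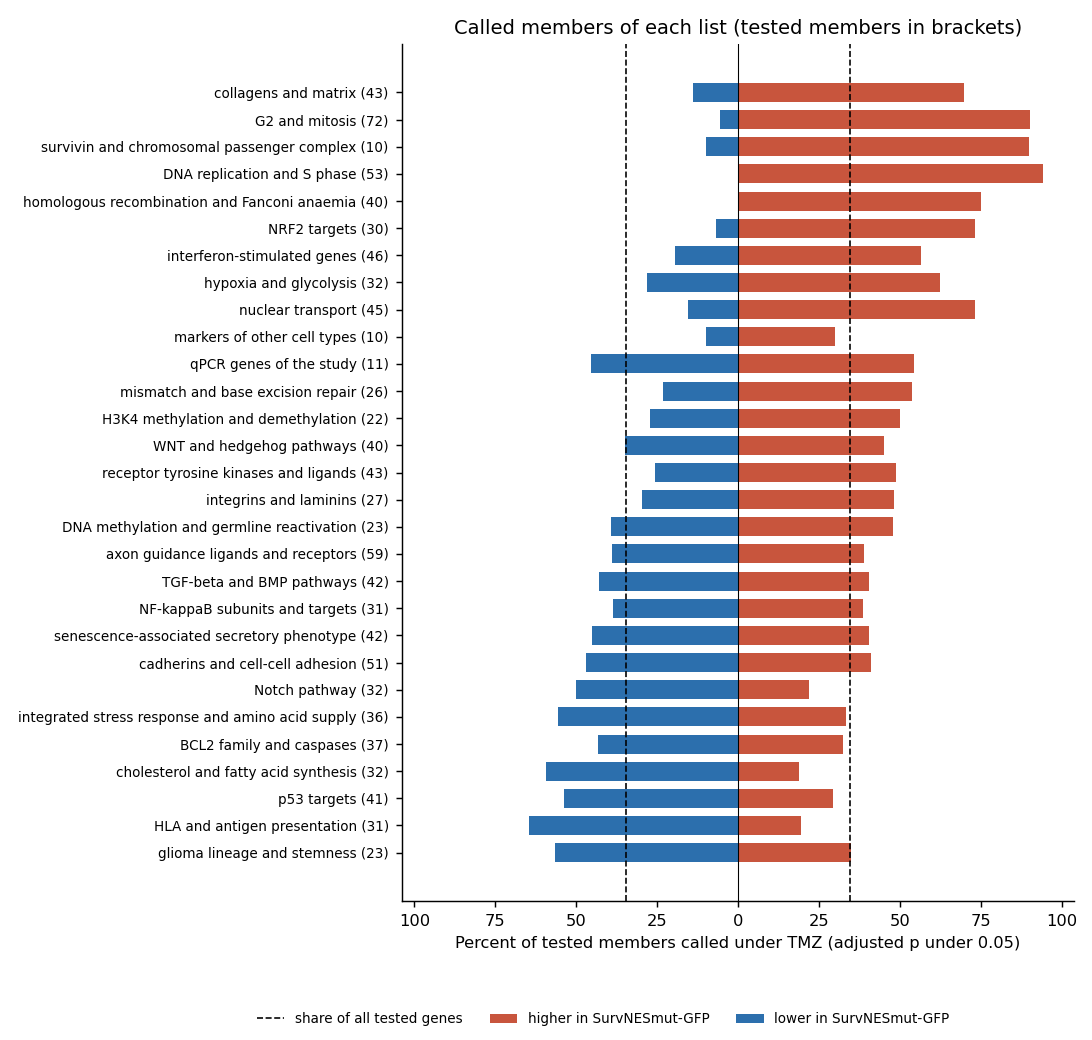
Share of the tested members of each list called higher (red, right) and lower (blue, left) in SurvNESmut-GFP under TMZ, with the shares of all tested genes (34.5% higher and 34.7% lower) as dashed lines. Replication, G2 and mitosis and passenger complex genes reach the farthest to the right, and HLA genes the farthest to the left.

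Some runs of neighbouring genes differed between the clones in one direction. RefSeq positions were found for 13940 of the 14201 genes, and genes were taken in their order on each chromosome. On chromosome 15, 60.9% of 455 tested genes were higher and 10.99% lower (median 0.42), and on chromosome 18, 24.2% of 190 were higher and 52.6% lower (median -0.24). The median on chromosome 15 was 0.37 without TMZ. BUB1B and PRC1, named above as mitotic genes, and FBXO22, named as a p53 target, are among the genes on chromosome 15. Other named genes may lie there too, since their positions are not listed here. Whether the differences of named genes go with their position was not tested. Over 1292 overlapping runs of 50 neighbouring genes the median log2 fold change ranged from −0.86 to 0.68, and its 5th and 95th percentiles were −0.41 and 0.45. The lowest run lay on chromosome 5, from RPL26L1 to ZNF354C, with 46 of 50 genes lower. Without TMZ, in libraries not shared with this comparison, 47 of these 50 were lower and the median was −0.80. The next lowest was on chromosome 17 from SLC16A6 to GALK1 (40 of 50 lower, median −0.72 with and −0.71 without TMZ). The highest lay on the same chromosome from C17orf97 to ZZEF1, with 42 of 50 higher (median 0.68 with and 0.70 without TMZ). Regions of chromosomes 15, 6 and 13 followed, with medians from 0.63 to 0.67. The runs were chosen for their values under TMZ, so only their values without TMZ are independent of that choice.

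**Figure D5:**
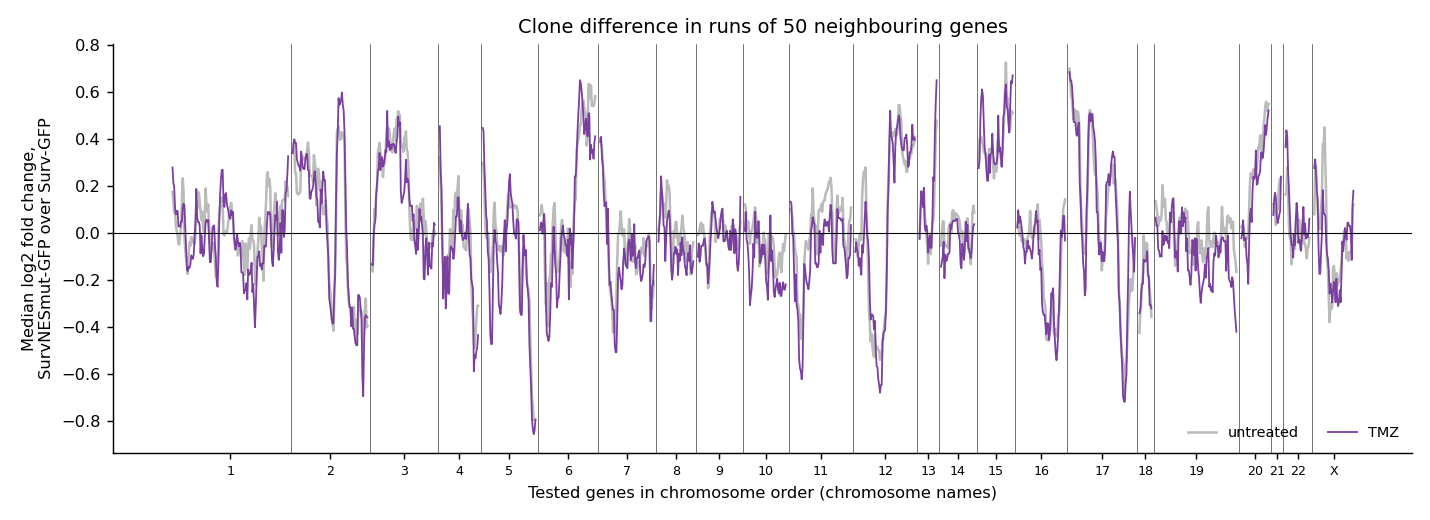
Median log2 fold change of SurvNESmut-GFP over Surv-GFP in runs of 50 neighbouring tested genes, in chromosome order, under TMZ (purple) and without (grey). The lines follow each other, with the lowest run on chromosome 5 at −0.86 and −0.80 and the highest on chromosome 17 at 0.68 and 0.70.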

How the data were processed

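RNA-seq was measured in 8 LN229 libraries, 2 for each of 4 groups. The deposited table holds raw gene counts for 26364 genes per library. The submitters' processing notes name STAR 2.5.0b, Cufflinks 2.2.1 and edgeR, without roles, and the sources used here do not give the genome build, annotation, counting program or strandedness. The rows for reads on no feature (11.2 to 14.3% per library) and for ambiguous reads were dropped. The deposited comparison tables of the authors, which hold log2 fold changes, log CPM, F values, p-values and FDR, were not used.

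Samples were grouped by their labels. Of 19501 genes with a count, 14201 passed filterByExpr by group. All 8 libraries were fitted in 1 model per gene with edgeR 4.0.16 (R 4.3.3), TMM scaling and the quasi-likelihood F test of earlier edgeR versions, and p-values were adjusted by Benjamini-Hochberg over all tested genes. Contrasts were SurvNESmut-GFP minus Surv-GFP under TMZ, the same without TMZ, and their difference, the interaction. Log2 fold changes are given ± SE and CPM are TMM-scaled. Leaving out each library, other scalings, filters and DESeq2 1.42.0 were alternatives. The method was tested on simulated data.

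Genes were named by rule: BIRC5 and the qPCR genes, the 10 largest differences in each direction with a count in each library of the lower clone, the 4 most abundant genes with at most 3 counts in the other clone, 5 genes close without TMZ, 3 reversed genes, and up to 4 called members a direction of each list by p. Some genes the rule names are not reported here. Members and lists were chosen with earlier results of these data known. Count ratios carry 95% counting intervals, and these and the limit of 3 counts cover counting error only.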

Additional observations from a re-analysis of the deposited data

Results flagged for a closer look

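For 108 of 176 genes named in the text, the log2 difference between the clones changed with TMZ by the interaction test (edgeR, adjusted p under 0.05). The values below are the log2 difference under TMZ minus that without, and the share of all tested genes passing was 16.6% with a larger and 20.2% with a smaller value. Some of the named genes were chosen because they passed this test or were reversed between the conditions. Others were chosen for large differences or small p. The count of 108 therefore cannot be compared with these shares.

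The order of the clones was exchanged, with SurvNESmut-GFP the lower clone under TMZ, for CDKN1A (-1.56), CXCL8 (-4.08), GADD45A (-2.28), GDF15 (-3.85), IGFBP3 (-3.92), IL11 (-5.23), KLF5 (-4.08), NFKB1 (-1.15), NFKBIB (-1.18), PPP1R15A (-2.72), TDG (-0.91), TRIB3 (-2.32) and VEGFA (-1.79).

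The order was exchanged the other way for MEGF10 (1.97), SLC1A3 (3.82) and SOCS3 (1.67).

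A more positive value was found, in genes higher in SurvNESmut-GFP under TMZ, for ABLIM1 (1.59), ACTB (0.37), ANLN (0.54), AURKB (0.40), BCL2L1 (0.30), BID (0.51), BLM (0.56), BUB1B (0.64), CDCA8 (0.40), COL4A2 (0.54), CPM (1.79), CSE1L (0.30), DPY19L2 (1.90) and DPYSL2 (0.74). The same held for ERAP2 (0.95), FANCA (0.70), FANCI (0.38), GBP1 (1.64), GLI2 (0.57), HHIP (1.08), INCENP (0.56), KIF20A (1.18), KIF23 (0.47), MSH6 (0.53), MYH14 (2.11), NAV3 (1.67), NCAPH (0.53) and NGFR (0.48). It also held for OAS3 (0.56), PARP1 (0.79), PLK1 (0.55), TAPBP (0.62), TGFB2 (1.01), TNFAIP2 (0.81) and UNG (0.86).

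Genes lower in SurvNESmut-GFP under TMZ had a less negative difference for CD74 (0.37), EPHA3 (0.47), GAPDH (0.18), GDF11 (0.44), HLA-DQA1 (0.79), HLA-DRA (0.59), MAP2 (0.91), SPARC (0.47) and VCAN (0.67).

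Genes lower in SurvNESmut-GFP under TMZ had a more negative value for ALKBH3 (-0.67), BCL2L2 (-0.78), BIRC2 (-0.87), BIRC5 (-1.48), CDC25B (-0.33), COL11A1 (-0.41), DDIT3 (-1.59), DNAJB9 (-2.28), EFNB2 (-1.31), FST (-1.86), INHBA (-1.26), ITGB8 (-1.41), JAG1 (-1.50) and KDM5A (-0.23). The same held for KDM5B (-0.71), KDM5C (-0.50), LONRF2 (-2.26), MAGEA12 (-0.35), MAGEA6 (-0.30), MPG (-0.38), NR4A1 (-1.93), PCDH10 (-0.37), PDE4D (-1.94), PMAIP1 (-1.38), PTPRZ1 (-1.06), PTTG1 (-0.50), SCD (-0.37) and SEMA3A (-0.51). It also held for SLC38A2 (-0.54), SMC4 (-0.24), TENM1 (-2.10), TNFRSF10B (-0.86), XIAP (-0.55) and ZNF385A (-1.68).

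Genes higher in SurvNESmut-GFP under TMZ had a smaller difference than without for ALDH1A3 (-0.46), BIRC3 (-1.39), COL1A2 (-0.97), CYFIP2 (-1.28), DKK1 (-2.63), IGFBP7 (-0.41), ITGA11 (-0.92), ITGA3 (-0.30), KITLG (-0.82), MCAM (-0.24), SLC16A3 (-0.88), SLC7A5 (-1.49), SLIT2 (-1.18) and STC2 (-2.31).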

How the results depend on the processing

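The counts of genes kept to within 1.5 times their reported values under every alternative except 1: with DESeq2, 441 genes were called the opposite way without TMZ, against 664, and the cause was not tested. When each library was left out in turn, the lone library of its group being assumed to vary like the others, the number of genes higher under TMZ ranged from 4180 to 4868 and of lower genes from 4486 to 5131. The number called the opposite way without TMZ ranged from 504 to 750, and of those not called without TMZ from 2167 to 3399. The 2 TMZ-exposed SurvNESmut-GFP libraries differed most from each other, and without replicate a of that group the replication list had 2 lower members, the integrated stress response list 6 higher and the Notch list 11 higher. Without replicate b of it, or of TMZ-exposed Surv-GFP, the replication list had 1 lower member. For the difference under TMZ none of the named genes reversed, and BIRC3 and HMMR were the named genes that lost their call under any alternative. The differences of named genes without TMZ and their interactions were not checked in this way. Other scalings, filters and leave-outs shifted the median log2 fold change of all genes by at most 0.039. With the replicate block, 4845 genes were higher and 4877 lower under TMZ. The labels do not say whether libraries of the same letter belong together. Deviations of same-lettered libraries from their group means correlated with r = 0.083 under TMZ and 0.0081 without, which does not settle it. Each Survivin form is represented by 1 clone, with 2 TMZ-exposed libraries of 15826923 to 18580099 counts, so that differences between the Survivin forms and between clones cannot be told apart.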

Other observations

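Germline and neural adhesion genes were also found among those nearly silent in Surv-GFP under TMZ. The following genes were chosen after their values were seen. GTSF1 and RNF17, which act in the piRNA pathway of germ cells, had 461 and 410 and 265 and 208 counts in the SurvNESmut-GFP libraries and 0 in both Surv-GFP libraries, which allows up to 3 counts in each. TENM2, a teneurin like TENM1, had 430 and 305 counts in SurvNESmut-GFP and 0 in Surv-GFP, the opposite direction to TENM1. NLGN4X, a neuroligin, had 548 and 574 counts against 1 and 0, and GPC3, a heparan sulfate proteoglycan, had 315 and 329 against 0 and 2. STK26, a kinase of the STRIPAK complex, had 307 and 301 counts against 0.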
